A study of Mus musculus with 4 samples.

Results

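The genes described here encode cell-surface receptors for neuropeptides and for adenosine in mouse T helper 2 (Th2) cells: Calcrl with its partners Ramp1 and Ramp3, the VIP receptor Vipr1 and the adenosine receptor Adora2a. They were chosen by name from a list of 6, and 5 of the 26207 genes in the deposited table matched it. Ramp2, the remaining name, has no row in the table and was not analysed here. The study made 4 bulk RNA-seq libraries of mouse Th2 cells, labelled as coming from spleen, 2 from cells treated with 10 µM dopamine and 2 from cells given phosphate-buffered saline (PBS), and its title concerns sympathetic nerves of the lung and Th2 resident memory cells. Th2 cells, a class of CD4 T cell, make type 2 cytokines, and dopamine is a catecholamine. The labels give neither the strain, the age, the culture conditions nor the length of treatment, and they leave unstated whether each library had an animal or culture of its own. The spread between libraries may therefore be technical.

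Calcrl is a class B G protein-coupled receptor that reaches the cell surface with one of the receptor activity-modifying proteins (RAMPs), single-pass membrane proteins that decide which peptide it binds. With RAMP1 it forms the receptor for calcitonin gene-related peptide (CGRP), a peptide of sensory nerves, and with RAMP2 or RAMP3 it forms adrenomedullin receptors. Vipr1 encodes VPAC1, a class B receptor for vasoactive intestinal peptide (VIP) and PACAP, and Adora2a encodes an adenosine receptor, which restrains T cell activation. All of these receptors can couple to the stimulatory G protein that raises cyclic AMP.

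Values are the authors' normalized counts, which are reads per gene divided by 1 size factor per library. The recovered reads assigned to genes ranged from 5717408 to 14167357 per library, the lowest total being that of the library here called PBS A. A and B follow the number that a column name carries, and no label ties same-numbered libraries to each other. Transcripts of helper T cells were abundant, with 25935 and 26597 normalized counts summed over 6 markers in the dopamine libraries, against 23427 and 24887 in the PBS libraries. Since the receptor genes were chosen with results of this comparison known, their differences are given as a description, with no test. The gene lists below were also chosen with earlier results of these data known, and their calls are not independent of that choice. In bulk RNA, fewer cells of a type and less transcript per cell cannot be told apart.

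Calcrl transcript was abundant and was higher with dopamine. It had 5772 and 5675 normalized counts in the dopamine libraries, against 1943 and 2041 in the PBS libraries. The libraries of each group lay close together and the groups did not overlap. The means were 5724 ± 68.2 with dopamine and 1992 ± 69.1 with PBS (SD, n = 2 each), a ratio of 2.87 and a log2 fold change of 1.52 (SE 0.06) on the log2(normalized count + 1) scale. Depth was ample, with 7482 and 5845 reads in the dopamine libraries and 1144 and 2664 in the PBS libraries. Corrected for exon length, Calcrl was above 98.0% and 97.8% of 17452 protein-coding genes in the dopamine libraries and above 94.2% of them in each PBS library. The gene lies on the minus strand of chromosome 2 from 84330626 to 84425411 (GENCODE M21, GRCm38), and no other annotated gene overlaps it.

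Ramp1, the partner for CGRP binding, was lower with dopamine. It had 103 and 130 normalized counts in the dopamine libraries, against 180 and 192 in the PBS libraries. Both dopamine libraries lay below both PBS libraries, with dopamine A the lowest. The means were 117 ± 18.9 with dopamine and 186 ± 8.12 with PBS (SD, n = 2 each), a log2 fold change of -0.67 (SE 0.15). These values rest on 134 reads in each dopamine library and on 106 and 250 reads in the PBS libraries. Ramp1 lies on the plus strand of chromosome 1 from 91179822 to 91225196, with no overlapping gene annotated.

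Ramp3, a partner for adrenomedullin binding, was near the limit of detection. It had 2.31 and 4.85 normalized counts in the dopamine libraries, against 10.2 and 8.43 in the PBS libraries. The values stand for 3 and 5 reads with dopamine and for 6 and 11 reads with PBS. Summed over libraries this was 0.312 RPM (reads scaled to a common library total) with dopamine (95% exact Poisson interval 0.135 to 0.614) and 0.897 with PBS (0.522 to 1.44), and the intervals, which cover counting error only, overlap. The groups themselves did not overlap, and the log2 fold change was -1.22 (SE 0.59). An exon of a pseudogene on the opposite strand, Gm11978, overlaps Ramp3 on chromosome 11 (6658521 to 6677475). Whether reads were counted by strand is not given in the sources used here, and reads of the pair may not have been told apart.

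The upstream sequences of Calcrl and Ramp1 are shown because these partners in one receptor differed in opposite directions. Both are from RefSeq (GRCm38.p6), read 5′ to 3′ on the gene's strand, and are limited to bases upstream of every annotated start, which leaves 105 bases for Calcrl (chr2:84425412-84425516, minus strand) and 250 for Ramp1 (chr1:91179572-91179821, plus strand). Capitals mark matches to the NFAT core GGAAA on either strand, and the Calcrl stretch holds none.
Calcrl: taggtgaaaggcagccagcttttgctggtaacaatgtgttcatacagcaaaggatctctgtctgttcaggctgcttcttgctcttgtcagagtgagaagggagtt
Ramp1: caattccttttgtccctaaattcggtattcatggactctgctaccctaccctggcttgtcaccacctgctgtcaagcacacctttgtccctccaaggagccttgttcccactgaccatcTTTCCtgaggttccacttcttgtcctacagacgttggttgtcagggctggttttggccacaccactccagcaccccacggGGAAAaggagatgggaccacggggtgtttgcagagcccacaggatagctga
The motifs were the cAMP response element TGACGTCA, its core TGACG, the AP-1 motif TGANTCA, the GATA motif AGATAA and the NFAT core GGAAA, each on both strands, in windows from 250 bases before to 50 bases after the RefSeq start. The core TGACG lies within TGACGTCA, so those counts overlap. Windows were held for Calcrl, Ramp1, Ramp3 and Vipr1. The full element TGACGTCA was in the window of 0 of these 4 genes and in 1.79% of all 32851 windows. Its core was found 1 time each in Ramp1 and Vipr1, and 20.8% of all windows hold it. GGAAA was found 2 times in Calcrl and 2 times in Ramp1, and 61.3% of all windows hold it. TGANTCA and AGATAA, in 7.81% and 11.2% of all windows, had no match in the 4. For Calcrl the RefSeq start lies 145 bases downstream of the GENCODE start, and both of its matches lie between these starts. A match is a description of letters and not a bound site.

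**Figure D1:**
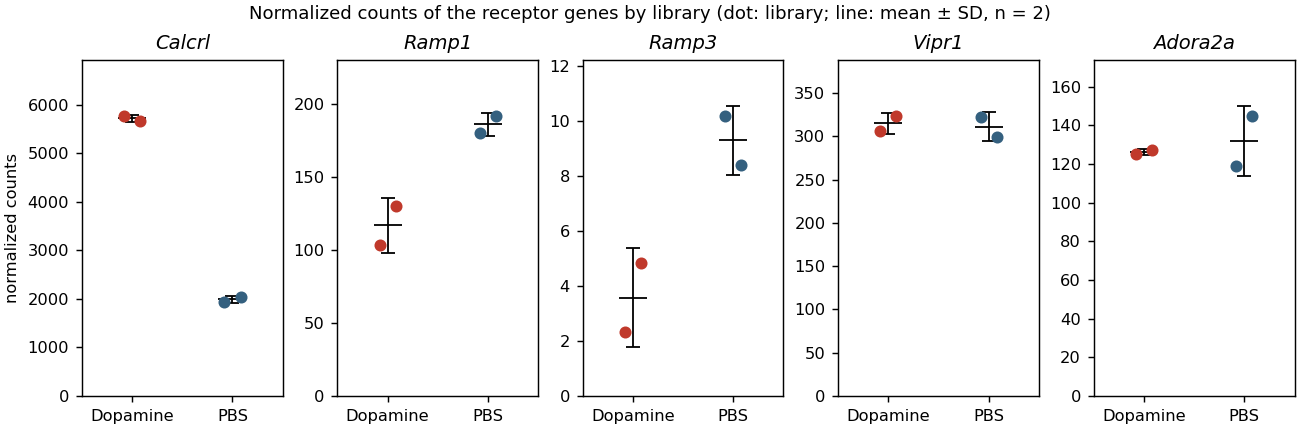
Normalized counts of each receptor gene (y axis, from 0, a scale per gene) in the dopamine and PBS libraries. Dots are libraries, and lines with bars are the mean ± SD of n = 2. Calcrl is at 5772 and 5675 with dopamine against 1943 and 2041 with PBS, Ramp1 and Ramp3 are lower with dopamine, and the groups overlap for Vipr1 and Adora2a.

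In the deposited scaling, Vipr1 and Adora2a showed no difference beyond the spread of their libraries. Vipr1 had 306 and 323 normalized counts in the dopamine libraries, against 323 and 299.6 in the PBS libraries. The groups overlapped, and the log2 fold change was 0.02 (SE 0.11, 95% interval -0.21 to 0.25), from 190 to 397 reads per library. In RPM the groups did not overlap, at 28.0 and 29.0 with dopamine, against 33.2 and 29.5 with PBS. Vipr1 lies on chromosome 9 from 121642716 to 121672954, plus strand.

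Adora2a had 125 and 127 normalized counts in the dopamine libraries, against 119 and 145 in the PBS libraries. Both dopamine libraries lay between the PBS libraries. The log2 fold change was -0.06 (SE 0.16, 95% interval -0.37 to 0.26), from 70 to 189 reads per library. In RPM both dopamine libraries lay below both PBS libraries, at 11.43 and 11.40, against 12.24 and 14.27. Differences within this interval remain compatible with the values. Adora2a lies on chromosome 10 from 75316877 to 75334784, plus strand.

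The groups did not overlap for 3 of the 5 genes, Calcrl being higher and Ramp1 and Ramp3 lower with dopamine. Among all genes, 58.9% had groups that did not overlap, 28.5% higher and 30.4% lower. Across the settings tried, the log2 fold change was positive in 13 of 13 for Calcrl (1.33 to 1.56), negative in 13 of 13 for Ramp1 (-0.88 to -0.51) and negative in 12 of 12 for Ramp3 (-1.63 to -0.75). For Vipr1 it was positive in 8 and negative in 5 of 13 (-0.18 to 0.07), and for Adora2a negative in 12 and positive in 1 of 13 (-0.28 to 0.08). The scaling of the libraries matters for small differences. Among the 8492 genes averaging 100 or more normalized counts, the log2 fold change had a median of 0.198 as deposited. Scaling the libraries on these genes moved that median to 0.003 and put Calcrl at 1.33, Ramp1 at -0.87, Vipr1 at -0.18 and Adora2a at -0.25.

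**Figure D2:**
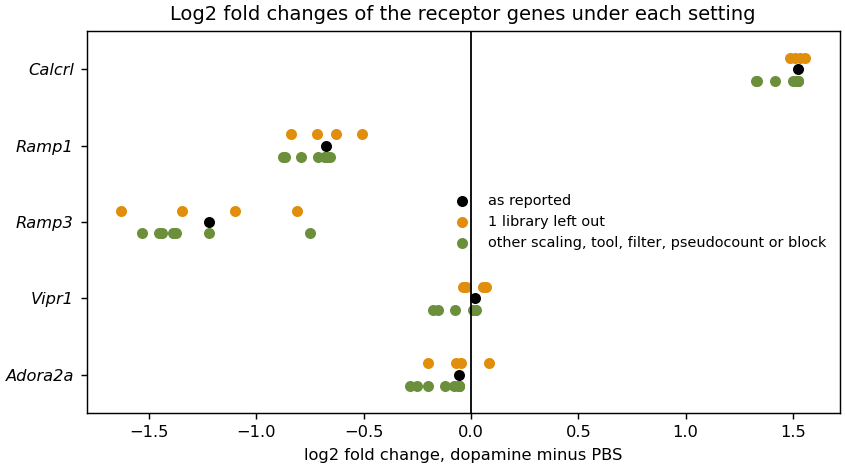
Log2 fold change, dopamine minus PBS (x axis), of each receptor gene (y axis) as reported (black), with 1 library left out (orange) and under another scaling, tool, filter, pseudocount or block (green). Calcrl stays between 1.33 and 1.56 and Ramp1 between -0.88 and -0.51, while Vipr1 and Adora2a have points on both sides of 0.

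Levels can be compared between genes once reads are divided by exon length. Calcrl stood far above the other genes in every library, at 264 and 258 TPM (a length-corrected share of all transcripts) with dopamine and 96.0 and 97.5 TPM with PBS. In the dopamine libraries the level of Vipr1 was 12.1 ± 0.396 TPM, that of Adora2a 9.16 ± 0.0631 TPM, that of Ramp1 8.59 ± 1.34 TPM and that of Ramp3 0.577 ± 0.286 TPM (SD, n = 2). Adora2a and Ramp1 overlapped there, and their order turned when the longest transcript was used as the length. In the PBS libraries the level of Ramp1 was 14.6 ± 0.292 TPM, that of Vipr1 12.7 ± 0.972 TPM, that of Adora2a 10.2 ± 1.18 TPM and that of Ramp3 1.60 ± 0.252 TPM (SD, n = 2), and no neighbours in this order overlapped. Ramp1 was thus above Vipr1 and Adora2a with PBS and below Vipr1 with dopamine.

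The balance between receptor and partner transcripts was described by their ratio within a library, which does not depend on the scaling between libraries. Calcrl exceeded Ramp1 34.6 and 27.0 times in the dopamine libraries, against 6.68 and 6.60 times in the PBS libraries. The dopamine libraries differed from each other by more than the PBS libraries did, and the groups did not overlap. Between the partners, Ramp1 exceeded Ramp3 20.4 and 12.2 times with dopamine, against 8.07 and 10.4 times with PBS, with Ramp3 at 3 to 11 reads. Transcript ratios do not give the number of receptor complexes. Taking the longest transcript as the length, Calcrl exceeded Ramp1 26.6 and 20.8 times with dopamine, against 5.14 and 5.07 times with PBS.

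**Figure D3:**
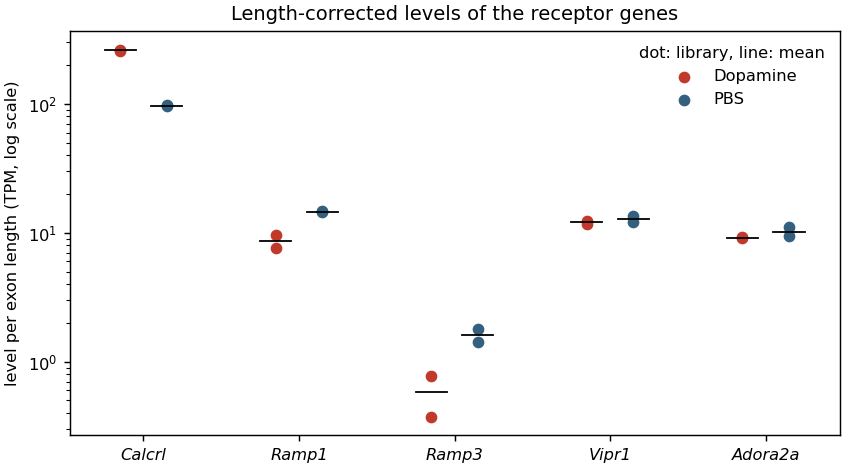
Length-corrected level in TPM (y axis, log scale) of each receptor gene in the dopamine (red) and PBS (blue) libraries. Dots are libraries and lines are means of n = 2. Calcrl stands above 90 TPM in each library, Ramp1, Vipr1 and Adora2a lie near 10 TPM, and Ramp3 lies at or below 1.78 TPM.

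Genes of other neuropeptides and their receptors were for the most part near the limit of detection. Of 36 such genes 25 had a row, and 20 of these stayed under 10 normalized counts in every library. In the limma fit over all genes, with Benjamini-Hochberg adjustment at 0.05, 2 of the 25 rose and 0 fell, with 2 higher and 4 lower at an unadjusted p under 0.05. Among all genes 14.3% were called higher and 7.00% lower, 21.3% in all. edgeR called 1 higher and 2 lower after its filter on low counts and 2 higher and 1 lower without it, and DESeq2 called 0 in either direction. The list's median was -0.19 on the log2 scale, where the whole table's was -0.08.

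The genes that rose encode a peptide and a receptor component. Crcp, whose product couples the CGRP receptor to its signalling and is also a subunit of RNA polymerase III, had 521 and 605 normalized counts with dopamine, against 462 and 441 with PBS (log2 fold change 0.32, SE 0.10, limma adjusted p = 0.0207). That call held in 6 of 13 alternatives. It was lost without any 1 of PBS A, PBS B or dopamine B (0.35, 0.28 and 0.21), when scaled on abundant genes (0.12), with DESeq2 (0.32) and in edgeR after its filter, with TMM (0.22) or upper-quartile scaling (0.14). Nts, which encodes neurotensin, had 35.5 and 24.3 with dopamine, against 15.3 and 11.5 with PBS (1.09, SE 0.35, adjusted p = 0.0208), and its call held in 9 of 13 alternatives. It ended without PBS B (0.90), without dopamine A (0.83), when scaled on abundant genes (0.90) and with DESeq2 (1.20).

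Ligands and other receptors of these families gave values of a few reads. Calca, which encodes CGRP, had 3.86 and 8.74 normalized counts with dopamine, against 5.10 and 4.60 with PBS. The adrenomedullin gene Adm had 5.40 and 1.94, against 0 and 1.53. The calcitonin receptor gene Calcr, which can also pair with RAMPs, had 5.40 and 1.94, against 5.10 and 3.06. Vipr2, the other VIP receptor gene, had 3.09 and 1.94, against 5.10 and 2.298. At this depth no difference was detectable in these 4 genes (limma adjusted p of at least 0.272). Adcyap1r1, the PACAP receptor gene, had 3.86 and 1.94 normalized counts with dopamine, against 8.49 and 8.43 with PBS (log2 fold change -1.32, adjusted p = 0.131). Its fold change was negative in 11 of 11 alternatives, and 1 of them, edgeR with upper-quartile scaling after the filter, called it lower (-1.63). Ackr3, an atypical receptor that takes up adrenomedullin and chemokines, had 1.54 and 2.91, against 8.49 and 8.43 (-1.58, adjusted p = 0.0758). It was called lower in 2 of 11 alternatives, both edgeR fits after the filter on low counts (-2.01 and -2.09), and not in edgeR without that filter (-1.93). Calcb, Vip and Adcyap1 had no row and were not analysed here.

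Genes that make, sense or remove adenosine moved in both directions. Of 26 with a row from a list of 27, 5 rose and 6 fell in the limma fit, against 14.3% and 7.00% of all genes. The list's median was 0.05 on the log2 scale. Without PBS B or dopamine B 3 of them fell. Entpd1, which encodes CD39, the ectoenzyme that breaks down ATP and ADP outside the cell, had 72.5 and 83.5 normalized counts with dopamine, against 30.6 and 30.6 with PBS (log2 fold change 1.32, SE 0.23, limma adjusted p = 1.79e-05). Nt5e, which encodes CD73, the enzyme that then forms adenosine, had 60.2 and 55.3 with dopamine, against 79.8 and 100.4 with PBS (-0.62, SE 0.20, adjusted p = 0.0184). Its call did not hold without PBS B (-0.46), without dopamine B (-0.57) or with DESeq2 (-0.66). The consecutive enzymes CD39 and CD73 thus differed in opposite directions at the transcript level. Enpp1, an ectoenzyme that cleaves nucleotides, had 157 and 167 with dopamine, against 273 and 267 with PBS (-0.74, SE 0.13, adjusted p = 2.05e-05).

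Inside the cell, Adk, the adenosine kinase that returns adenosine to AMP, had 1433 and 1489 normalized counts with dopamine, against 956 and 1060 with PBS (log2 fold change 0.54, SE 0.08, limma adjusted p = 1.17e-06). Ahcy, which frees adenosine from S-adenosylhomocysteine, had 1021 and 1136, against 630.2 and 731 (0.67, SE 0.09, adjusted p = 1.39e-07). Ada, the adenosine deaminase, had 350.2 and 399, against 313 and 305 (0.28, adjusted p = 0.0764). Dpp4, which encodes CD26, a surface peptidase that binds adenosine deaminase in humans, had 553 and 551, against 703 and 823 (-0.46, SE 0.10, adjusted p = 2.22e-04). The calls of Entpd1, Enpp1, Adk, Ahcy and Dpp4 held in 13 of 13 alternatives. The remaining genes that passed, named after their values were seen, were Nt5c and Ampd2, which rose, and Slc29a1, Slc28a2 and Enpp3, which fell.

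None of the other adenosine receptor genes passed the test. Adora2b had 36.3 and 49.5 normalized counts with dopamine, against 30.6 and 26.8 with PBS (log2 fold change 0.55, SE 0.27, limma adjusted p = 0.153). The groups did not overlap, and the fold change was positive in 13 of 13 alternatives. Adora1 had 0.771 and 2.91, against 3.40 and 7.66, and Adora3 had 2.31 and 0.971, against 1.70 and 7.66, values of a few reads. Exons of Mybph overlap Adora1 and exons of Tmigd3 overlap Adora3, which makes these counts uncertain.

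**Figure D4:**
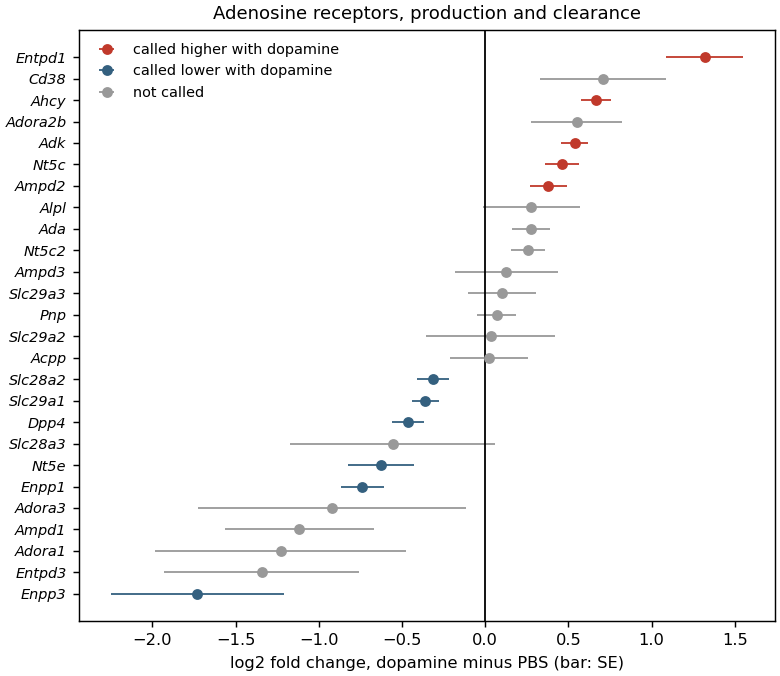
Log2 fold change, dopamine minus PBS (x axis, bars are SE), of the 26 genes for adenosine receptors, production and clearance (y axis), in red where called higher with dopamine, in blue where called lower and in grey where not called. Entpd1 is at 1.32 and Nt5e at -0.62.

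Genes that carry or end the signal of G protein-coupled receptors were also followed. Of 28 genes for G proteins, receptor kinases, arrestins and trafficking partners, 8 rose and 2 fell in the limma fit, against 14.3% and 7.00% of all genes. The list's median was 0.14 on the log2 scale, and 27 of the 28 averaged 20 or more normalized counts. Of the genes averaging 100 or more, 47.0% were called, 39.1% higher and 7.90% lower. The rises depended on the scaling and on single libraries. When scaled on abundant genes 0 rose and 8 fell, with upper-quartile scaling in edgeR after its filter 2 rose and 8 fell, and 1 rose without PBS A and 2 without dopamine B.

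The genes that fell in the limma fit were Arrb1 and Grk3, 7.14% of the list, which is near the 7.00% of all genes. Arrestins and receptor kinases desensitise receptors, and the list was built to hold them. The receptor kinase genes Grk4, Grk5 and Grk6 were not called. The calls of Arrb1 and Grk3 held in 13 of 13 alternatives each. Arrb1, which encodes beta-arrestin 1, had 316 and 338 normalized counts with dopamine, against 559 and 572 with PBS (log2 fold change -0.79, SE 0.10, limma adjusted p = 7.19e-08). Grk3, a receptor kinase, had 19.3 and 17.5, against 54.4 and 54.4 (-1.52, SE 0.28, adjusted p = 4.00e-05). Their close relatives, named after their values were seen, went the other way in this scaling, Arrb2 by 0.38 (SE 0.13, limma adjusted p = 0.0232) and Grk2 by 0.31 (SE 0.08, limma adjusted p = 0.00236) on the log2 scale. Both stayed positive in 13 of 13 alternatives, from 0.099 to 0.66 for Arrb2 and from 0.11 to 0.40 for Grk2. The Arrb2 call held in 5 of 13 alternatives and the Grk2 call in 9 of 13. Both calls ended under 1 or more scalings, without PBS A (0.099 for Arrb2 and 0.21 for Grk2) and without dopamine B (0.31 and 0.22). That of Arrb2 also ended with DESeq2 (0.33), in edgeR's TMM without a filter (0.28) and with a pseudocount of 0.1 (0.38). Among the rises, Gnb1, a G protein beta subunit, had 1431 and 1573 normalized counts with dopamine, against 1091 and 1215 with PBS (0.38, SE 0.08, adjusted p = 3.09e-04). Its call was lost without PBS A (0.30) and when scaled on abundant genes (0.19). Ric8a, a chaperone of G protein alpha subunits, had 615 and 667, against 462 and 487 (0.43, SE 0.10, adjusted p = 7.07e-04). The Ric8a call was lost when scaled on abundant genes (0.24). Exons of Bet1l and Sirt3 on the opposite strand overlap Ric8a. Gnas, the stimulatory alpha subunit, had 67.9 and 78.6, against 62.9 and 53.6 (0.33, SE 0.21, adjusted p = 0.278), and the antisense gene Nespas overlaps it.

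**Figure D5:**
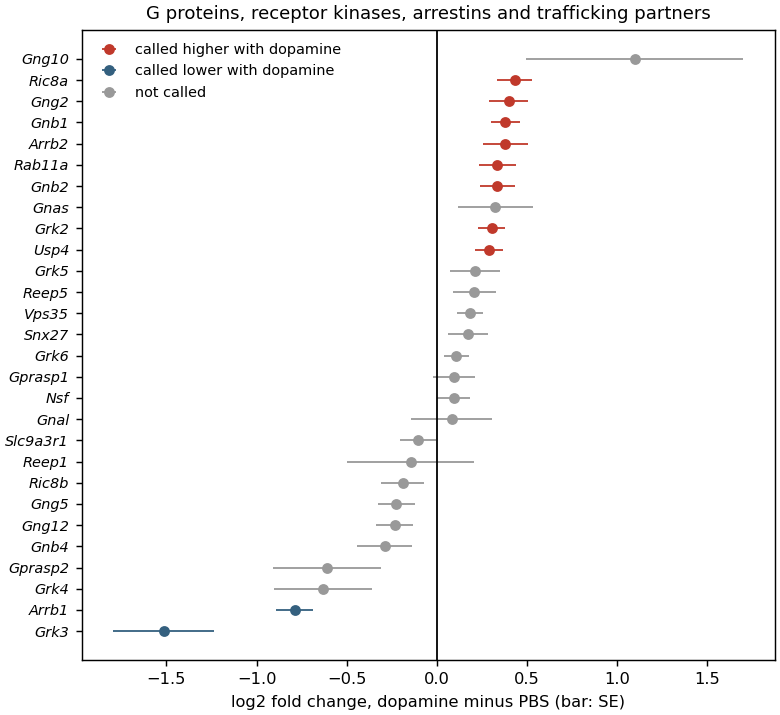
Log2 fold change, dopamine minus PBS (x axis, bars are SE), of 28 genes for G proteins, receptor kinases, arrestins and trafficking partners (y axis), coloured by call as higher (red), lower (blue) or not called (grey). Grk3 at -1.52 and Arrb1 at -0.79 are the genes called lower.

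Transcripts of other cell types that use these receptors were checked beside the values. Markers that rose or fell are those called in the limma fit at an adjusted p under 0.05. That fit called 14.3% of all genes higher and 7.00% lower. Of the 6 helper T cell markers, 3 rose (Trbc2, Cd3g and Cd3d) and Trac fell, at 4241 and 4566 with dopamine, against 5174 and 5457 with PBS. Calcrl is well known from endothelium. Of 12 endothelial markers Vwf and Flt4 fell, and the 11 markers other than Pecam1, which T cells also express, summed to 122 and 98.1 normalized counts with dopamine, against 158 and 152 with PBS. The defining marker Cdh5 had 5.40 and 3.88 with dopamine, against 10.2 and 5.36 with PBS, groups that overlap, and Lyve1 was at 0 in dopamine B and in PBS A. Egfl7 had 32.4 and 31.1 with dopamine, against 22.1 and 22.2 with PBS, and did not pass the test (log2 fold change 0.50, limma adjusted p = 0.256). Exons of Agpat2 on the opposite strand overlap Egfl7, which makes these counts uncertain. Kdr had 10.8 and 13.6 with dopamine, against 17.0 and 30.6 with PBS, and Tie1 had 9.26 and 6.80, against 18.7 and 11.5. Both were lower without overlap and did not pass the test (limma adjusted p = 0.107 and 0.221). The groups of Emcn, Prox1 and Tek overlapped, and the median log2 fold change of the 11 markers was 0.07. Of 9 basophil and mast cell markers 8 fell, and the list summed to 898 and 824 with dopamine, against 2633 and 2243 with PBS. Enpp3, which marks basophils, had 5.40 and 2.91 with dopamine, against 18.7 and 13.02 with PBS. The macrophage and dendritic cell list of 12 summed to 164 and 154 with dopamine, against 226 and 260.5 with PBS, and 3 of its genes fell. Those were Lyz2 (18.5 and 28.2, against 64.6 and 67.4), Adgre1 and Clec9a. Itgax (33.2 and 25.2, against 10.2 and 27.6) and Zbtb46 (50.9 and 40.8, against 39.1 and 33.7) were higher on average with dopamine and were not called. Neutrophil markers summed to 87.2 and 67.0 with dopamine, against 307 and 329 with PBS, with 3 of 7 lower. Most of that sum was Mpo, at 72.5 and 60.2 with dopamine, against 267 and 303 with PBS. In every library 5 of the 7 stayed under 10 normalized counts, among them Ly6g and Cxcr2, which were not called. B cell markers summed to 356 and 352 with dopamine, against 173 and 137 with PBS, with 3 of 6 higher. The part of these cell types in the receptor values was not tested.

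The genes with the most similar profiles over the 4 libraries were found by the Euclidean distance between centred log2 values. The search covered 10592 genes with a mean of at least 20. It left out predicted genes (Gm and Rik names), names that begin with a digit, and T cell receptor and immunoglobulin segments. The genes nearest to Calcrl were S100a6, a calcium-binding protein gene (distance 0.0934), and the type 2 cytokine gene Il13 (0.0974). S100a6 had 167 and 152 normalized counts with dopamine, against 52.7 and 58.2 with PBS, and Il13 had 613 and 626, against 195 and 210. Within a distance of 0.2 lay 13 genes for Calcrl, 84 for Ramp1, 1142 for Adora2a and 1981 for Vipr1. The nearest to Ramp1 were Ralgapa2 (0.0215) and Calcoco1 (0.0312), to Vipr1 Peak1 (0.00935) and Ak7 (0.0158), and to Adora2a Nmnat3 (0.0156) and Ccnb2-ps (0.0219). For Ramp3, itself at a few reads, the nearest was Zfhx2 (0.164). With 4 libraries such likeness is a description.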

How the data were processed

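Libraries were made from total RNA with a stranded mRNA kit, per the labels' protocols. Per the submitters' processing notes, the tools were FastQC 0.11.2, TopHat2 2.0.13, HTSeq 0.6, DESeq2 and R 3.6.2, with build mm10. Neither annotation nor strand setting is given in the sources used here. The deposited signal values are counts that the authors divided by 1 size factor per library, per the file headers and values. The authors' log2 fold changes, Wald score and p-values in the deposited table were not used.

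The values were whole multiples of 1 read for 100% of genes within a tolerance of 0.01, so reads were recovered. Columns carry numbers that differ from the titles' replicate numbers and were matched to groups only. Libraries of a group differed beyond sampling noise (chi-square per degree of freedom 2.69 for dopamine and 2.09 for PBS).

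Log2(value + 1) was fitted in R 4.3.3 (limma 3.58.1, trended prior variance) over all 26207 genes, no filter, 2-sided, with Benjamini-Hochberg adjustment at 0.05. Variances were shrunk with 42.4 prior degrees of freedom, so p-values rest mostly on spread pooled over genes. Alternatives were edgeR 4.0.16 and DESeq2 1.42.0 on recovered reads, other scalings, filters and pseudocounts, a replicate block and leaving out each library.

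TPM used union exon lengths from GENCODE M21 for 24693 genes. Named genes were all members, at most 4 called genes per list by p, fixed ligands, receptors and enzymes, and the 2 nearest profiles per member. A second nearest profile, to Ramp3, is left out. Members and lists were chosen with earlier results of these data known.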

Additional observations from a re-analysis of the deposited data

How the results depend on the processing

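Each library was left out in turn. The log2 fold change then ranged from 1.49 to 1.56 for Calcrl, -0.84 to -0.51 for Ramp1, -1.63 to -0.81 for Ramp3, -0.04 to 0.07 for Vipr1 and -0.20 to 0.08 for Adora2a. Over all genes 2152 to 3201 were called higher (3743 with all libraries) and 762 to 1389 lower (1834). The lists gave 0 to 1 peptide genes higher, 4 to 5 adenosine genes higher and 3 to 5 lower, and 1 to 7 G protein genes higher and 2 to 3 lower. Calca (-0.27 to 0.74), Calcr (-0.76 to 0.36) and Vipr2 (-0.81 to 0.072), at a few reads each, changed sign. With edgeR's TMM after its filter on low counts, which changes tool, scaling and filter together, the log2 fold change was 1.42 for Calcrl, -0.073 for Vipr1 and -0.20 for Adora2a, and 1 peptide gene was called higher, 2 peptide genes and 7 G protein genes lower. With upper-quartile scaling and the same filter it was 1.33, -0.16 and -0.28, with Ramp1 at -0.88, 2013 genes higher and 3149 lower, 1 peptide gene higher and 3 lower, and 2 G protein genes higher and 8 lower. Scaled on abundant genes, the values were 1.33 for Calcrl, -0.87 for Ramp1, -0.18 for Vipr1 and -0.25 for Adora2a, with 1807 genes higher and 3176 lower, 0 peptide genes higher and 1 lower, and 0 G protein genes higher and 8 lower. The share of higher calls was 67.1% as reported, 53.5% in edgeR with TMM and the filter, 65.5% in edgeR with TMM and no filter, 39.0% with upper quartiles and the filter, 36.3% scaled on abundant genes, 78.0% with DESeq2 and 77.6% among genes with a mean of at least 20. DESeq2 called 719 genes lower and 0 peptide genes higher. Without a filter edgeR's TMM gave 1.501 for Calcrl, 0.0081 for Vipr1 and -0.12 for Adora2a, and called 1 peptide gene and 3 G protein genes lower. Among genes with a mean of at least 20, 1160 were called lower. Ramp3, with a mean under 20, was filtered out and not tested there. A pseudocount of 5 put Ramp3 at -0.75. The number in the column names as a replicate block left fold changes as they were and gave 1 peptide gene and 5 G protein genes lower, with 4627 genes higher and 2372 lower. Same-numbered libraries deviated together with r = 0.214 over 8492 genes, and no label says that the numbers pair them. With the longest transcript as length, levels were 209 and 79.3 TPM for Calcrl with dopamine and PBS, 15.5 TPM for Ramp1 with PBS, and 11.4 and 8.66 TPM for Vipr1 and Adora2a with dopamine. Except where a scaling is itself the change, the cause was not tested. Depth limits Ramp3 and the ligand genes, whose values are a few reads.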

Other observations

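The nearest protein-coding neighbours of the receptor genes were looked up after the values were seen, by position alone. Tfpi, which encodes an inhibitor of the coagulation pathway, lies 7443 bases beyond the start of Calcrl. It had 332 and 311 normalized counts with dopamine, against 224 and 233 with PBS (log2 fold change 0.49, SE 0.12, limma adjusted p = 0.0018), and the call held in 12 of 13 alternatives, the exception being the scaling on abundant genes (0.30). Ube2f, 25107 bases from Ramp1, had 238 and 259 with dopamine, against 183 and 195 with PBS (0.39, SE 0.13, limma adjusted p = 0.0241), and its call held in 5 of 13 alternatives. Rbm44, on the other side of Ramp1 at 9026 bases, had 43.2 and 42.7 with dopamine, against 56.1 and 51.3 with PBS (limma adjusted p = 0.366). For Vipr1, the neighbour Sec22c had 131 and 154 with dopamine, against 146 and 124 with PBS. For Adora2a, the neighbours Specc1l and Gucd1 had a log2 fold change of -0.16 and -0.10, and neither passed the test.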
